A study of Homo sapiens with 12 samples.

Results

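The transcriptional response to erastin was measured in RCC4, an established cell line of human clear cell renal carcinoma, after transfection with a non-targeting control siRNA (siNT). The response is the comparison of 3 siNT arrays treated with 1 µM erastin for 7 hours with 3 siNT arrays given its solvent, DMSO, for as long. These 6 arrays, chosen by their labels, are part of a series of 12, and 11963 genes were compared, each by its probe set of highest mean across the 12 arrays. The other 6 arrays come from cells given an siRNA against YAP (siYAP) with DMSO (3 arrays) or the same erastin treatment (3 arrays), and they enter through the choice of probe set, the shared estimate of spread and 1 comparison near the end. Every cell had been transfected with siRNA for 2 days before treatment, the controls included. The labels describe biological triplicates without naming separate cultures. The p-values therefore cover only the spread among these arrays, part of which may be technical. All results concern 1 cell line, 1 dose and 1 time.

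Erastin blocks system xc-, the antiporter built from SLC7A11 and SLC3A2 that brings cystine into the cell in exchange for glutamate. Cystine supplies the cysteine of glutathione, which the enzyme GPX4 uses to repair oxidised lipids, and prolonged loss of this supply can end in ferroptosis, a form of cell death that depends on iron. Shortage of an amino acid also activates the integrated stress response, in which translation of the transcription factor ATF4 goes up and ATF4, with C/EBP partners, turns on genes for amino acid import, amino acid synthesis and tRNA charging. RCC4 cells lack functional VHL, so hypoxia-inducible factors are active in them without hypoxia.

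The 12 arrays gave log2 values from 2.02 to 14.4, with array medians of 6.49 to 6.52 and correlations within a group of 0.99619 to 0.99873. The lowest correlation (0.99619) was that between siNT erastin arrays 2 and 3, and erastin array 3 had a log2 difference of 1.49 between the 3' and 5' ACTB control probe sets, against 2.40 to 2.97 on the other 5 siNT arrays. RCC markers were present in siNT cells, with PAX8 at 10.6, CD70 at 10.9 and VIM at 13.6 in DMSO. CDH1 (3.28) and LRP2 (2.81) stood below the mean levels of markers of other cell types. The mean level of 9 endothelial markers was 4.32 to 4.48 with DMSO and 4.3 to 4.52 with erastin, that of 10 fibroblast and pericyte markers 4.54 to 4.64 and 4.49 to 4.69, and that of 10 immune markers 4.62 to 4.78 and 4.6 to 4.83. Single members stood higher, among them CD74 at 9.41, COL1A1 at 7.45 and RGS5 at 6.5 in siNT cells with DMSO. None of the 29 endothelial, fibroblast, pericyte and immune markers, nor of 15 RCC and tubule markers, passed the test. YAP1 was 8.47 to 8.59 with DMSO and 8.47 to 8.65 with erastin.

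Few genes were called with erastin, and most of the largest called rises were in genes on the amino acid response lists described below. The glutathione-degrading enzyme CHAC1 was 3.1-fold higher, the activin subunit gene INHBE 2.93-fold, the mTORC1 inhibitor DDIT4 2.86-fold and CTH, which makes cysteine from cystathionine, 2.26-fold. These 4 were the only called genes that changed at least 2-fold, which is 0.0334% of genes tested, and no gene fell that far. By limma with Benjamini-Hochberg adjustment over 11963 genes, 58 genes were higher (0.485%) and 32 lower (0.267%) at adjusted p under 0.05, 90 in all (0.752%). The median rise among the 58 was 0.44 on the log2 scale and the median fall among the 32 was -0.33, the latter with a largest fall of 1.5-fold. On all 90 genes the 3 erastin arrays lay to one side of the 3 DMSO arrays, as they did for 5.89% of all genes upward and 8.51% downward.

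The number of calls differed between fits, and the cause was not tested. A fit of the 6 siNT arrays alone called 15 genes, all higher. Without siNT DMSO array 1, 2 or 3, 35, 38 and 44 genes were called, without siNT erastin array 1 or 3 it was 34 and 57, and without siYAP erastin array 1 or 3 it was 53 and 52. Of the 90 genes, 15 were called under all 21 alternative fits, and these were all rises. Of 54 called genes that are named by rule here, 14 stayed called under all of them, 40 lost the call under at least 1, and none changed direction. Many of these fits could not change a direction. They keep the log2 change, or leave out 1 array from groups that do not overlap.

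**Figure D1:**
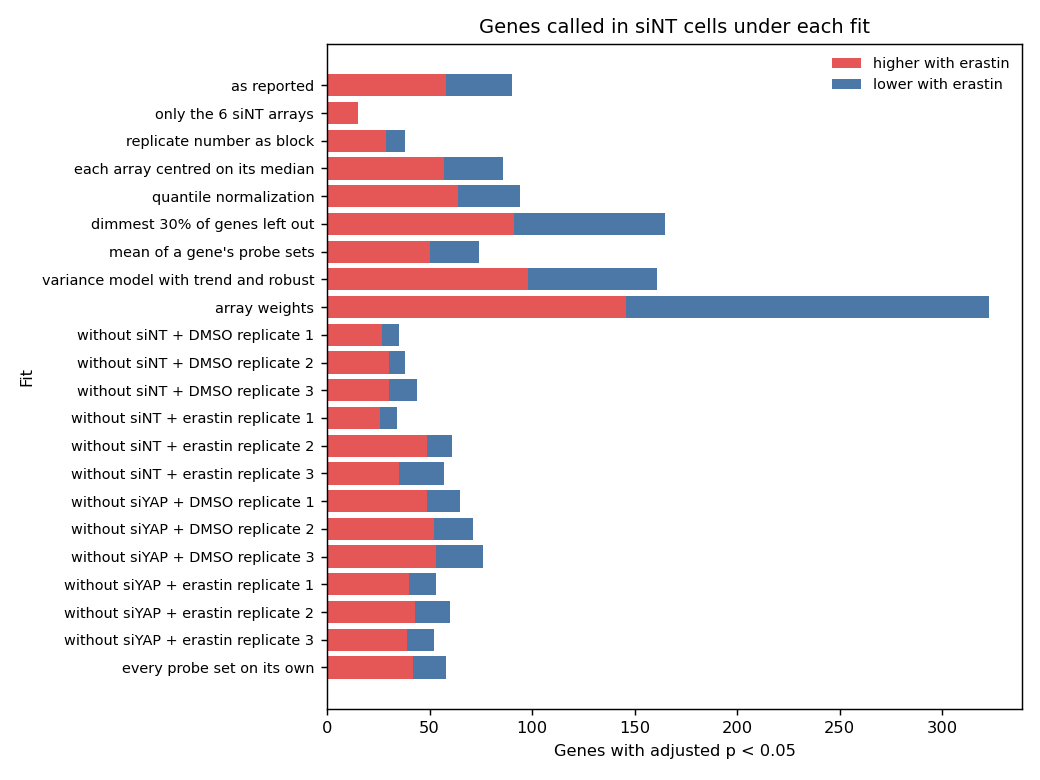
Number of genes at adjusted p under 0.05 (horizontal axis), split into higher and lower, for the fit reported and each alternative (vertical axis). The count runs from 15 with the 6 siNT arrays alone to 323 with array weights, against 90 as reported.

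**Figure D2:**
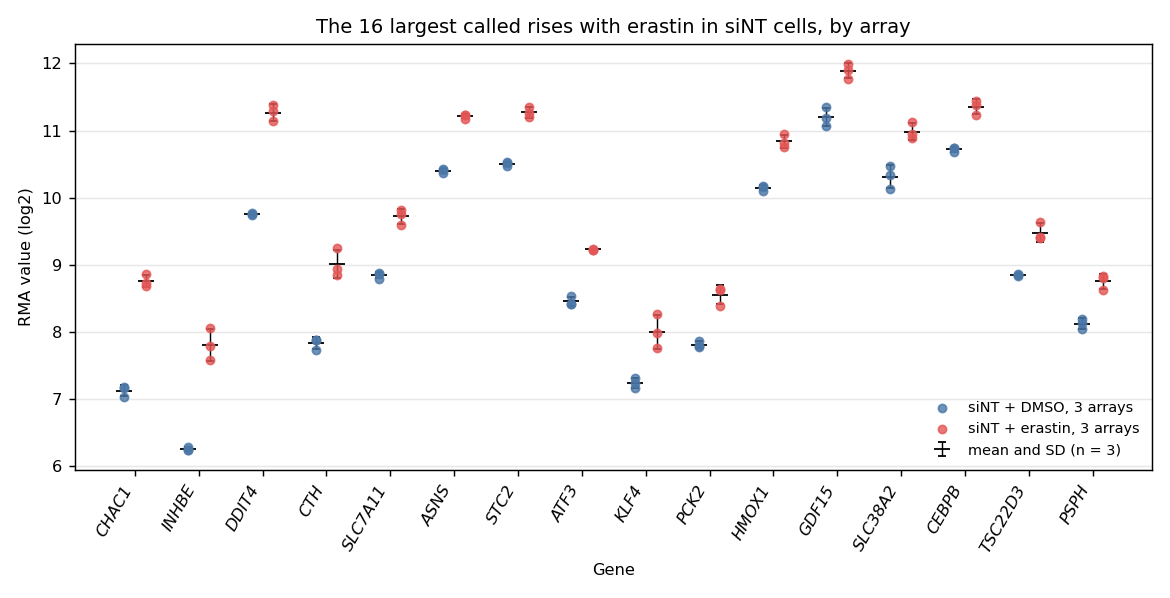
RMA value (log2, vertical axis) of the 16 called genes with the largest rises, in the 3 siNT arrays with DMSO and the 3 with erastin, with mean and SD. The groups do not overlap for any of the 16, as for all 90 called genes. CHAC1, INHBE, DDIT4 and CTH are the 4 genes that rose at least 2-fold.

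Promoter windows were searched for the element that ATF4 is known to bind. The C/EBP-ATF response element (CARE) was searched as TGATGNAAN on both strands, in RefSeq windows (GRCh38.p14) that run from 250 bases before to 50 bases after each listed start site. It was present in 3.61% of the 35116 windows in the table. Counted by gene over all of its windows, it was present for 3.42% of 9563 tested genes, for 12 of 49 genes called higher that have a window (24.5%) and for 1 of 26 called lower (3.85%). Of genes called higher on the amino acid response lists described below, 8 of 21 had it (38.1%), and of members of those lists that were not called, 11 of 49 (22.4%). The antioxidant response element, which NRF2 binds, was searched as TGACNNNGC and was present for 19.4% of tested genes, 26.5% of the genes called higher and 15.4% of those called lower. The cAMP response element TGACGTCA, whose letters cannot overlap those of an antioxidant match, was present for 3.59%, 4.08% and 0% of them.

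The 250 bases upstream of the start sites of CHAC1, the gene with the largest rise, and ASNS, asparagine synthetase, are shown because each holds a single CARE match, in capitals. The CHAC1 stretch is chr15:40953221-40953470 (+ strand), where the match is read on the opposite strand at positions -210 to -202 from the start site. The ASNS stretch is chr7:97872409-97872658 (- strand), with the match at -68 to -60. It belongs to 1 of 2 windows listed for ASNS, picked because it holds a match, while CHAC1 had 1 window.
CHAC1: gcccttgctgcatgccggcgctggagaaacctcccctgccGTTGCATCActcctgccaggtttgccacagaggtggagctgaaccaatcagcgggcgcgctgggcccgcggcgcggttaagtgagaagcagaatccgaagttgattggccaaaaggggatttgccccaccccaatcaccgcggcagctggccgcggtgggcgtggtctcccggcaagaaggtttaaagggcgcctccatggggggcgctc
ASNS: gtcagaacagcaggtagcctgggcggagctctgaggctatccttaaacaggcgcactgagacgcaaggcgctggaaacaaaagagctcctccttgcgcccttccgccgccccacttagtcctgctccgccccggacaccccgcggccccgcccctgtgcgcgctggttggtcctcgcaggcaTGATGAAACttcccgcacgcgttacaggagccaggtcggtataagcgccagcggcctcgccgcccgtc

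Stretches of 29 bases around the match, each turned so that the CARE (capitals) reads in the same orientation, let 7 of the 8 genes be compared. The match of the remaining gene, SLC3A2, is too close to the end of its window for the flanks. ATF3, like ASNS, had 2 windows listed. The stretches lie at chr7:97872458-97872486 (- strand) for ASNS, chr1:212565206-212565234 (+ strand) for ATF3, chr11:3057408-3057436 (+ strand) for CARS1, chr15:40953251-40953279 (- strand) for CHAC1, chr7:30594834-30594862 (- strand) for GARS1, chr16:56931955-56931983 (- strand) for HERPUD1 and chr2:64989381-64989409 (- strand) for SLC1A4.
ASNS: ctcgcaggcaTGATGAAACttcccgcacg
ATF3: aaggtcaggaTGATGGAAGgctgtcatat
CARS1: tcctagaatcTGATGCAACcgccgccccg
CHAC1: ctggcaggagTGATGCAACggcaggggag
GARS1: gctcggagcaTGATGAAATcgccgcgtaa
HERPUD1: gggcacgggcTGATGCAACccgccgcgtc
SLC1A4: cggctggagaTGATGCAAAcgggagccgc

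The base at the variable position of the core was c in CARS1, CHAC1, HERPUD1 and SLC1A4, a in ASNS and GARS1 and g in ATF3. The windows of DDIT4, CTH and STC2, which also belong to the 6 largest rises with a window on these lists, did not hold these letters. A match is a description of the sequence, and binding was not measured.

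Regulators of the stress response rose in number. Of 20 measured genes on the list of ATF4 and CHOP stress regulators, 12 were higher (60%, against 0.485% of all genes) and none lower. Their median log2 change was 0.39, against -0.00353 over all genes. The fit of the 6 siNT arrays alone called 6 of the 20. ATF4 itself, whose main control is translational, was 12.51, 12.46 and 12.52 with DMSO and 12.77, 12.81 and 12.74 with erastin. That is a small rise without overlap between the groups (log2 change 0.27, SE 0.05, adjusted p = 0.0292). ATF4 was called under 10 of the 21 alternative fits. Its call was lost with the 6 siNT arrays alone (adjusted p = 0.249), with a replicate block (0.0994), with every probe set on its own (0.0576), and without any 1 of the 3 siNT DMSO arrays, siNT erastin arrays 1 and 2 and the 3 siYAP erastin arrays (0.0551 to 0.136). DDIT3, which encodes the pro-apoptotic factor CHOP, went from 8.31, 8.17 and 8.47 to 8.95, 9.00 and 8.81 and rose by 0.60 (adjusted p = 0.00189). ATF3, a repressor induced by ATF4, varied little within a group, at 8.42, 8.54 and 8.42 with DMSO and 9.22, 9.22 and 9.24 with erastin (log2 change 0.77, SE 0.0528, adjusted p = 1.1e-05). TRIB3, a pseudokinase that feeds back on ATF4, rose by 0.36 from a level of 11.17 ± 0.02 to 11.53 ± 0.05 (SD, n = 3; adjusted p = 0.00693), and CEBPB, a partner of ATF4, by 0.64 (adjusted p = 2.38e-04).

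Genes for secreted and effector products on the same list had some of its largest rises. Whether ATF4 controls them in these cells was not tested. INHBE, which encodes the activin beta E subunit, was 6.29, 6.25 and 6.24 with DMSO and 7.79, 7.58 and 8.06 with erastin (adjusted p = 4.89e-06). DDIT4, also known as REDD1, was 9.74, 9.77 and 9.75 with DMSO and 11.29, 11.14 and 11.38 with erastin (log2 change 1.52, SE 0.0664, adjusted p = 1.37e-07). For both genes the DMSO arrays lay close together and every erastin array was more than 1 unit above them. STC2, the glycoprotein stanniocalcin 2, rose from 10.50 ± 0.03 to 11.27 ± 0.08 (adjusted p = 1.19e-05). GDF15, a stress-induced cytokine, went from 11.35, 11.18 and 11.07 to 11.77, 11.90 and 11.99, a rise of 0.69 (adjusted p = 0.00326), although its other, dim probe set at a mean of 4.71 was not called. NUPR1, a stress-induced chromatin protein, rose by 0.58 (adjusted p = 0.0256). HERPUD1 (0.52) and VLDLR (0.42), the remaining called members, were named after their values were seen. Members with no call included EIF4EBP1 (0.19, adjusted p = 0.399) and VEGFA (0.10, adjusted p = 0.696).

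Genes of cystine import and glutathione were called at import (SLC7A11, SLC3A2), cysteine supply (CTH) and glutathione breakdown (CHAC1). Of 20 measured members 4 were higher (20%, against 0.485% of all genes) and none lower, with a median of 0.04. SLC7A11, the transport subunit that erastin acts on, was 8.79, 8.87 and 8.88 with DMSO and 9.76, 9.59 and 9.81 with erastin, and thus 1.83-fold higher (log2 change 0.87, SE 0.0672, adjusted p = 2.98e-05). Of its 2 other probe sets, 1 was called in the same direction (0.86) and the dimmest was not (0.47). SLC3A2, the heavy chain that carries SLC7A11 to the membrane, rose less, by 0.40 (9.24 ± 0.08 to 9.64 ± 0.06, adjusted p = 0.023). CTH, at 7.89, 7.88 and 7.73 against 8.85, 8.93 and 9.25, rose by 1.18 (SE 0.0932, adjusted p = 3.44e-05), and its second probe set by 1.19. CHAC1 was 7.03, 7.18 and 7.16 with DMSO and 8.68, 8.73 and 8.86 with erastin (log2 change 1.63, SE 0.0644, adjusted p = 7.92e-08), with no overlap.

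The enzymes that assemble and use glutathione did not pass the test. The catalytic and modifier subunits of glutamate-cysteine ligase, GCLC and GCLM, differed by -0.02 (adjusted p = 0.979) and 0.05 (adjusted p = 0.886). GPX4 was 11.70, 11.66 and 11.95 with DMSO and 11.84, 11.80 and 11.70 with erastin, so the groups overlapped (log2 change 0.01, SE 0.0742, adjusted p = 0.988). MGST3, a microsomal glutathione transferase, differed by 0.01 (adjusted p = 0.975).

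Some amino acid synthesis genes were called higher. On the list of serine, one-carbon and asparagine synthesis, 4 of 14 were higher (28.6%, against 0.485% of all genes) and none lower, with a median of 0.18. The erastin arrays lay above the DMSO arrays on 50% of the list (5.89% of all genes) and below them on 7.14% (8.51% of all genes). Genes without a call can therefore have risen too. ASNS was 10.42, 10.42 and 10.36 with DMSO and 11.17, 11.23 and 11.23 with erastin, a rise of 0.81 (SE 0.0485, adjusted p = 3.66e-06). PCK2, the mitochondrial phosphoenolpyruvate carboxykinase, rose by 0.74 (7.81 ± 0.05 to 8.55 ± 0.14, adjusted p = 2.38e-04) and PSPH, the last enzyme of serine synthesis, by 0.63 (adjusted p = 9.68e-04). MTHFD2, a mitochondrial folate enzyme, rose by 0.54 (adjusted p = 0.00499).

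Serine synthesis was not called at its earlier steps. PSAT1 was 7.22, 7.19 and 7.06 with DMSO and 7.49, 7.59 and 8.37 with erastin. Its groups did not overlap, but erastin array 3 stood well above the other two, and the difference of 0.66 had SE 0.199 and adjusted p = 0.24. PHGDH, the first enzyme, was 6.26, 6.27 and 6.36 against 6.42, 6.41 and 6.03 and overlapped (log2 change -0.01, adjusted p = 0.992). SHMT2 (0.17, adjusted p = 0.341) and MTHFD1 (-0.02, adjusted p = 0.948) were not called either.

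Among amino acid transporters, 4 of 20 were higher (20%, against 0.485% of all genes) and none lower, with a median of 0.07. Besides SLC7A11 and SLC3A2 these were SLC38A2 and SLC1A4, and the fit of the 6 siNT arrays alone called 2 of the list. SLC38A2, the SNAT2 carrier of small neutral amino acids, was 10.34, 10.47 and 10.12 with DMSO and 10.89, 10.95 and 11.12 with erastin (log2 change 0.67, SE 0.0833, adjusted p = 0.00193). SLC1A4, the ASCT1 carrier of alanine, serine, cysteine and threonine, was 8.24, 8.24 and 8.20 against 8.69, 8.77 and 8.74 (0.51, SE 0.0618, adjusted p = 0.00189). SLC7A5, the large neutral amino acid carrier that pairs with SLC3A2, lay higher on each erastin array but missed the threshold (11.25, 11.27 and 11.13 against 11.55, 11.48 and 11.47, log2 change 0.28, adjusted p = 0.064). SLC7A1 (0.14, adjusted p = 0.481) and SLC38A1 (0.10, adjusted p = 0.603) were not called.

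Cytosolic and mitochondrial aminoacyl-tRNA synthetases, which load tRNAs with amino acids, were listed apart, and a difference between both lists was not tested. Of 16 cytosolic enzymes 3 were called higher (18.8%, against 0.485% of all genes). On 9 of the 16 (56.2%) the erastin arrays lay above the DMSO arrays, against 5.89% of all genes. GARS1 rose by 0.30 (adjusted p = 0.0278), CARS1, the cysteine enzyme, by 0.25 (adjusted p = 0.0427) and WARS1 by 0.25 (adjusted p = 0.0486). GARS1 was 12.48, 12.52 and 12.50 with DMSO and 12.80, 12.73 and 12.88 with erastin. KARS1 (-0.04, adjusted p = 0.835) and NARS1 (0.05, adjusted p = 0.816) were not called. Of 10 mitochondrial enzymes none was called and 1 lay above (IARS2, 0.02, adjusted p = 0.93), with a list median of -0.02 against 0.15 for the cytosolic list. The 3 calls sit close to the threshold, and there were 0 in the fit of the 6 siNT arrays alone and without any 1 of siNT DMSO arrays 1, 2 and 3, siNT erastin arrays 1 and 3 and siYAP erastin array 3. Without siNT erastin array 2, siYAP DMSO array 1 or siYAP erastin array 1 or 2 there was 1.

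These 5 lists together held 87 measured genes, of which 25 were called higher (28.7%, against 0.485% of all genes) and 0 lower. They made up 43.1% of all genes called higher and 16 of the 20 largest called rises. The lists were chosen with earlier results of these arrays known, so the counts describe them and are not independent evidence.

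**Figure D3:**
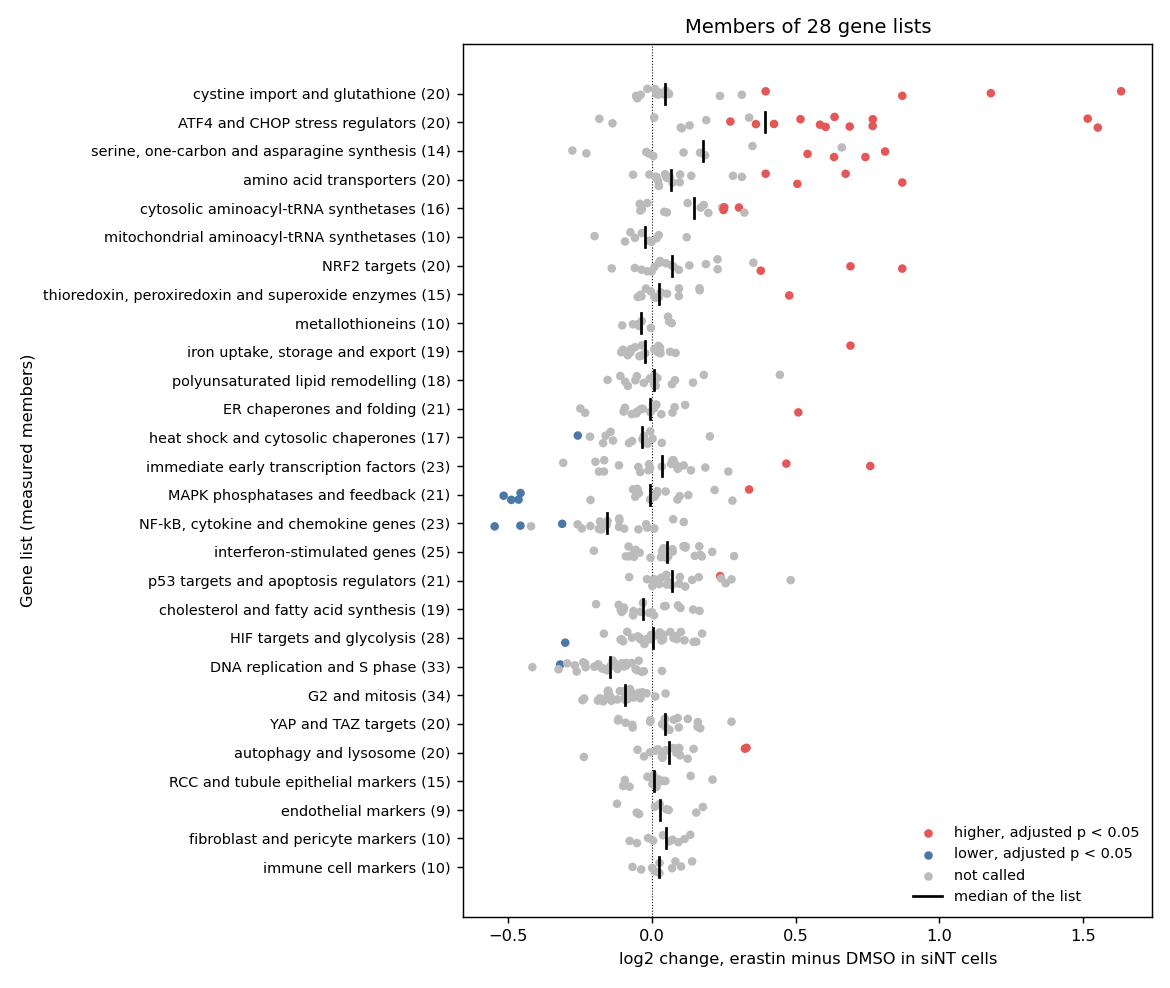
Log2 change with erastin in siNT cells (horizontal axis) of each measured member of 28 gene lists (vertical axis, number of measured members in brackets), with red for genes called higher, blue for genes called lower, grey for genes not called and a black bar for the list median. The list of ATF4 and CHOP stress regulators has the highest median, 0.39, while the S phase list, at -0.15, and the list of NF-kB, cytokine and chemokine genes, at -0.16, have the lowest.

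Of 20 NRF2 targets, genes of the antioxidant response, 3 were higher (15%, against 0.485% of all genes) and none lower, with a median of 0.07. On 40% of them the erastin arrays lay above the DMSO arrays, against 5.89% of all genes. One of them was SLC7A11, which ATF4 also controls. HMOX1, heme oxygenase 1, rose from 10.16, 10.18 and 10.10 to 10.76, 10.81 and 10.94 (log2 change 0.69, SE 0.0679, adjusted p = 2.85e-04), and its groups did not overlap. The aldo-keto reductase AKR1C1 rose by 0.38 (adjusted p = 0.023), but neither of its 2 other probe sets was called and its paralogues are close in sequence, so that value is uncertain. NQO1 (0.02, adjusted p = 0.944), TXNRD1 (0.09, adjusted p = 0.595) and the ferritin light chain FTL (0.03, adjusted p = 0.917) were not called.

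Among thioredoxin, peroxiredoxin and superoxide enzymes, 1 of 15 was called higher (6.67%, against 0.485% of all genes). On 26.7% of them the erastin arrays lay above the DMSO arrays (5.89% of all genes). The called gene was TXNIP, an inhibitor of thioredoxin and of glucose uptake, which went from 10.47, 10.42 and 10.40 to 10.81, 10.97 and 10.94 (log2 change 0.48, adjusted p = 0.00279). PRDX1 (-0.02, adjusted p = 0.938) and PRDX3 (0.03, adjusted p = 0.938) were not called. None of 10 metallothionein list genes was called (MT2A, -0.05, adjusted p = 0.813; MT1E, -0.07, adjusted p = 0.699).

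The list for the folding branches of the unfolded protein response gave 1 call. Called genes outside this list, such as HERPUD1 on the stress regulator list, were not counted. Of 21 ER chaperone and folding genes 1 was higher (4.76%, against 0.485% of all genes) and none lower, with a median of -0.01. It was XBP1, a transcription factor of that response (9.18 ± 0.09 to 9.69 ± 0.14, log2 change 0.51, adjusted p = 0.0117). HSPA5, the main ER chaperone BiP, was 12.39, 12.31 and 12.34 with DMSO and 12.44, 12.29 and 12.33 with erastin, and overlapped (log2 change 0.00, SE 0.0581, adjusted p = 0.995). CANX differed by -0.05 (adjusted p = 0.814). Of 17 heat shock and cytosolic chaperone genes, DNAJB1 fell by 0.26 (adjusted p = 0.031), with no other call (5.88%, against 0.267% of all genes lower). The erastin arrays lay below on 29.4% of that list, against 8.51% of all genes. HSPD1 (-0.03, adjusted p = 0.875) and HSP90AA1 (-0.08, adjusted p = 0.681) were not called.

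Genes that handle iron and polyunsaturated lipids, the substrates of ferroptosis, were almost without calls. Of 19 iron genes only HMOX1, described above, was called (5.26%, against 0.485% of all genes higher). TFRC, the transferrin receptor, was 12.61, 12.58 and 12.52 with DMSO and 12.68, 12.58 and 12.64 with erastin, so the groups overlapped (log2 change 0.06, adjusted p = 0.749). Of 18 lipid genes none was called. ACSL4, an acyl-CoA synthetase that favours polyunsaturated fatty acids, differed by -0.03 (SE 0.102, adjusted p = 0.965). PTGS2, often read as a marker of ferroptosis, was 6.19, 6.22 and 6.02 with DMSO and 6.42, 6.37 and 6.99 with erastin. Every erastin array was higher, most of all the third, and the difference of 0.44 (SE 0.13) had adjusted p = 0.217. NOX4, an NADPH oxidase, had values of only 3.25 to 3.61 and differed by 0.07 (adjusted p = 0.927).

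Of 23 immediate early factors, KLF4 and EGR1 were higher (8.7%, against 0.485% of all genes) and none was lower, with a median of 0.03. Neither KLF4 nor EGR1 was called in the fit of the 6 siNT arrays alone. The erastin arrays lay above the DMSO arrays on 21.7% of the list (5.89% of all genes) and below them on 21.7% (8.51% of all genes). KLF4, a zinc finger factor, was 7.24, 7.32 and 7.17 with DMSO and 7.98, 7.76 and 8.27 with erastin (log2 change 0.76, SE 0.107, adjusted p = 0.00526). EGR1 was 8.00, 8.02 and 8.01 against 8.54, 8.42 and 8.46 (0.47, adjusted p = 6.88e-04). A second probe set was not called for either gene. IER3 (-0.01, adjusted p = 0.989) and ZFP36L1 (0.19, adjusted p = 0.262) were not called.

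TSC22D3, the glucocorticoid-induced leucine zipper gene GILZ, rose from 8.86, 8.84 and 8.83 to 9.39, 9.41 and 9.64 (log2 change 0.63, adjusted p = 4.57e-04). SCG2, a secretogranin, rose by 0.58 (adjusted p = 0.0234). On the autophagy and lysosome list 2 of 20 were higher (10%, against 0.485% of all genes) and none lower, namely the cargo receptor NBR1 (0.33, adjusted p = 0.043) and GABARAPL1, a homologue of LC3 (0.32, adjusted p = 0.0256). On 8 of the 20 (40%, against 5.89% of all genes) the erastin arrays lay above the DMSO arrays, but 0 were called in the fit of the 6 siNT arrays alone or without any 1 of siNT DMSO arrays 1, 2 and 3, siNT erastin arrays 1 and 3 and siYAP erastin arrays 1 and 3. Without siNT erastin array 2, siYAP DMSO array 1 or 2 or siYAP erastin array 2 there was 1. LAMP1 (0.04, adjusted p = 0.866) and CTSB (0.05, adjusted p = 0.85) did not pass. Of 21 p53 targets and apoptosis regulators 1 was called higher (4.76%, against 0.485% of all genes), the cyclin-dependent kinase inhibitor CDKN1A (0.24, adjusted p = 0.047). CDKN1A was called under 5 of the 21 alternative fits. GADD45A missed the threshold (0.28, adjusted p = 0.06).

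Of the 32 falls, 10 were on a list and 22 on none. On the list of MAPK phosphatases and feedback genes 4 of 21 were lower (19%, against 0.267% of all genes) and 1 higher, with a median of -0.01. DUSP7, a phosphatase of ERK, was 6.97, 7.01 and 6.95 with DMSO and 6.45, 6.37 and 6.56 with erastin, and fell by 0.52 (SE 0.0627, adjusted p = 0.00188). RGS2, which dampens G protein signals, fell by 0.49 (7.32 ± 0.05 to 6.83 ± 0.08, adjusted p = 0.00307) and RGS4 by 0.46 (adjusted p = 0.0456). HBEGF, an EGF receptor ligand, was 9.27, 9.25 and 9.22 with DMSO and 8.70, 8.74 and 8.90 with erastin, and fell by 0.46 (adjusted p = 0.00253), as did 1 of its 2 other probe sets. TRIB1, a pseudokinase, rose by 0.34 (adjusted p = 0.039). DUSP1 (-0.05, adjusted p = 0.888) and PHLDA1 (0.13, adjusted p = 0.572) were not called.

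On the list of NF-kB, cytokine and chemokine genes 3 of 23 were lower (13%, against 0.267% of all genes) and none higher, with a median of -0.16. On 11 of 23 (47.8%) the erastin arrays lay below the DMSO arrays, against 8.51% of all genes. CCL2, a monocyte chemokine, was 9.97, 9.98 and 10.40 with DMSO and 9.64, 9.68 and 9.39 with erastin (log2 change -0.55, SE 0.106, adjusted p = 0.0397). PLAUR, the urokinase receptor, was 10.00, 9.96 and 9.84 against 9.46, 9.49 and 9.48, and fell by 0.46 (adjusted p = 0.0146). NFKBIE, an inhibitor of NF-kB, fell by 0.31 (adjusted p = 0.0454). The 3 calls of this list became 0 without siNT DMSO array 1 or 2 or siNT erastin array 1, and 1 without any 1 of siNT DMSO array 3, siNT erastin array 2 and the 6 siYAP arrays. TNFRSF12A (0.01, adjusted p = 0.992) and PLAU (-0.11, adjusted p = 0.604) were not called.

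Outside the lists, BCL2A1, an anti-apoptotic member of the BCL2 family, was 5.77, 5.84 and 6.07 with DMSO and 5.36, 5.12 and 5.46 with erastin (log2 change -0.58, SE 0.118, adjusted p = 0.047). LTB, which encodes lymphotoxin beta, fell by 0.43 (adjusted p = 0.023) and CD83, a surface glycoprotein of activated immune cells, by 0.43 (adjusted p = 0.00349), the latter from 8.28 ± 0.04 to 7.85 ± 0.05. TMEM158, a gene induced by RAS signalling, fell by 0.44 (adjusted p = 0.00957). SYNJ2, an inositol phosphatase, fell by 0.37, RBM14 by 0.35, the organic anion transporter SLCO4A1 by 0.34 and RUSC1 by 0.34. TUBBP5, a tubulin pseudogene, was 3.30, 3.49 and 3.30 against 2.94, 3.01 and 2.96, at the bottom of the scale, and shares sequence with its parent genes, so its value is uncertain. In the fit of the 6 siNT arrays alone, 0 of the 32 falls were called, while 7 of them were called in at least 18 of the 21 alternative fits. BCL2A1, the largest called fall, was not among these and was called under 7 of the 21 fits. CCL2 was called under 6 and RGS4 under 8.

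**Figure D4:**
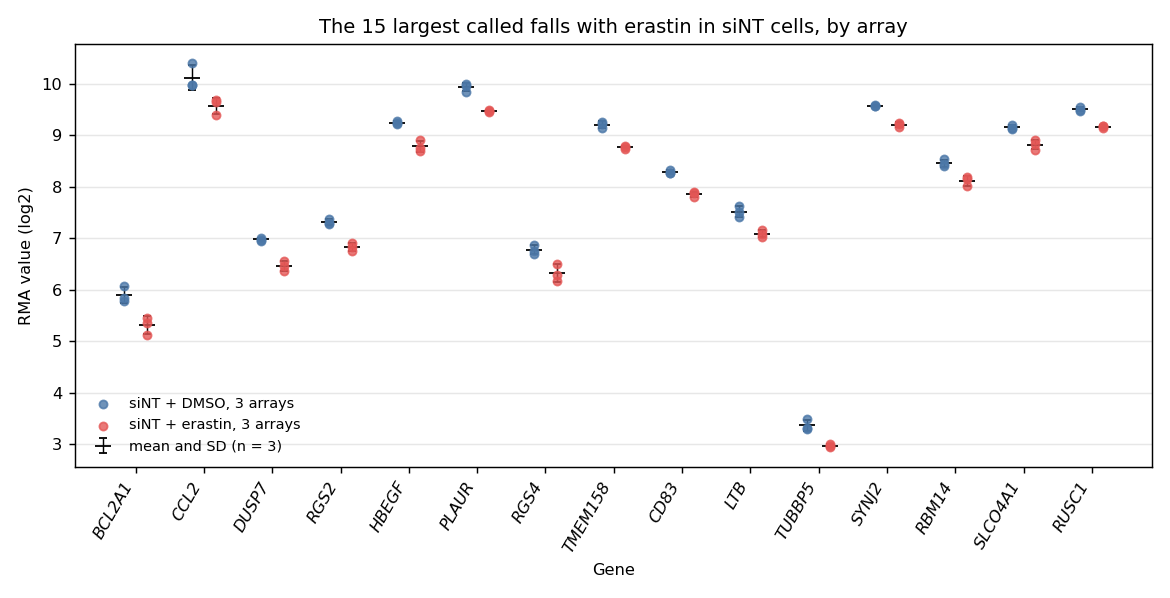
RMA value (log2, vertical axis) of the 15 called genes with the largest falls, in the 3 siNT arrays with DMSO and the 3 with erastin, with mean and SD. Groups that do not overlap were a condition for choosing the 15. The largest called fall is that of BCL2A1 (1.5-fold), and TUBBP5 lies near 3, at the bottom of the scale.

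Cell cycle genes gave 1 call, and most of their values were slightly lower with erastin. Of 33 genes of DNA replication and S phase, CCNE1, which encodes cyclin E1, fell by 0.32 (8.34 ± 0.06 to 8.03 ± 0.07, adjusted p = 0.0456). CCNE1 was called under 7 of the 21 alternative fits. No other gene of the list passed (3.03% lower, against 0.267% of all genes). The median was -0.15, and on 22 of the 33 (66.7%) the erastin arrays lay below the DMSO arrays, against 8.51% of all genes. PCNA, the sliding clamp, was 12.41, 12.28 and 12.35 against 12.26, 12.16 and 12.21 (log2 change -0.14, adjusted p = 0.435), and TYMS differed by -0.05 (adjusted p = 0.835). Of 34 genes of G2 and mitosis none was called, the median was -0.09, and the erastin arrays lay below on 14 (41.2%), among them PTTG1 (-0.15, adjusted p = 0.411) and AURKA (-0.11, adjusted p = 0.69). Genes of these lists are known to vary together in cycling cells, so their number is not one of separate observations. Whether fewer cells were cycling or each held less of these RNAs cannot be told apart in bulk RNA.

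Hypoxia, interferon, lipid synthesis and YAP target lists together gave 1 call. ANGPTL4, a lipoprotein lipase inhibitor, was the only called member of the list of hypoxia-inducible factor targets and glycolysis genes. That is 1 of 28 measured members (3.57%, against 0.267% of all genes lower). The count covers only this list, which does not hold the called rises DDIT4 and STC2. ANGPTL4 was 10.36, 10.22 and 10.30 with DMSO and 10.03, 9.99 and 9.94 with erastin, and fell by 0.30 (adjusted p = 0.0427). It was called under 7 of the 21 alternative fits. GAPDH (0.01, adjusted p = 0.966) and LDHA (-0.02, adjusted p = 0.944) were not called. None was called of 25 interferon-stimulated genes (IFITM3, 0.07, adjusted p = 0.794, and IFITM2, 0.15, adjusted p = 0.435), of 19 cholesterol and fatty acid synthesis genes (ACLY, -0.10, adjusted p = 0.527, and FDPS, -0.07, adjusted p = 0.851) or of 20 YAP and TAZ targets (IGFBP3, 0.05, adjusted p = 0.817, and AXL, -0.01, adjusted p = 0.994). The erastin arrays lay above the DMSO arrays on 16% of the interferon list, against 5.89% of all genes, and below them on 26.3% of the lipid synthesis list, against 8.51%. At an unadjusted p under 0.05 limma found 1271 of the 11963 genes (10.6%).

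The response of siNT cells was then set beside that of siYAP cells, whose means come from other arrays. Both responses were taken from 1 fit, with a shared estimate of spread and the same probe sets. Their calls are therefore not independent, and the overlaps below are descriptions. In siYAP cells 39 genes were higher (0.326%) and 1 lower (0.00836%). Of the 58 genes higher in siNT cells, 23 (39.7%) were higher in siYAP cells too, which is 59% of the siYAP list, and 1 of the 32 falls (3.12%), HBEGF, was the single siYAP fall. No gene was called in opposite directions. Over all 11963 genes, which are not independent, the log2 changes of both responses correlated at r = 0.129 (Spearman's rho = 0.0151), as a description.

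The difference between both responses itself was tested as an interaction. In limma it gave 0 genes at adjusted p under 0.05, and 1179 genes (9.86%) at an unadjusted p under 0.05. A variance model with a trend and robust fitting gave 8 genes, GDF15 and TXNIP (both adjusted p = 0.0148) and SLC1A4 among them, and array weights gave 1, SLC1A4. SLC1A4 had the smallest adjusted p of all genes (0.153), with a rise of 0.51 in siNT and 1.12 in siYAP cells. CHAC1 rose by 1.63 and 1.64, and their difference was 0.01 (SE 0.0911, adjusted p = 0.984). GDF15 was 0.69 higher with erastin in siNT cells and differed by -0.05 (adjusted p = 0.897) in siYAP cells, a difference of -0.73 (SE 0.129) with adjusted p = 0.272. For TXNIP the changes were 0.48 and -0.01 (difference -0.49, adjusted p = 0.272). SLC7A11 rose by 0.87 and 1.26 (difference 0.39, adjusted p = 0.354) and DDIT4 by 1.52 and 1.15 (difference -0.37, adjusted p = 0.378). Since the 90 genes were chosen by their change in siNT cells, smaller changes in siYAP cells are favoured by the choice, and the median over the 58 rises was 0.44 in siNT and 0.27 in siYAP cells.

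**Figure D5:**
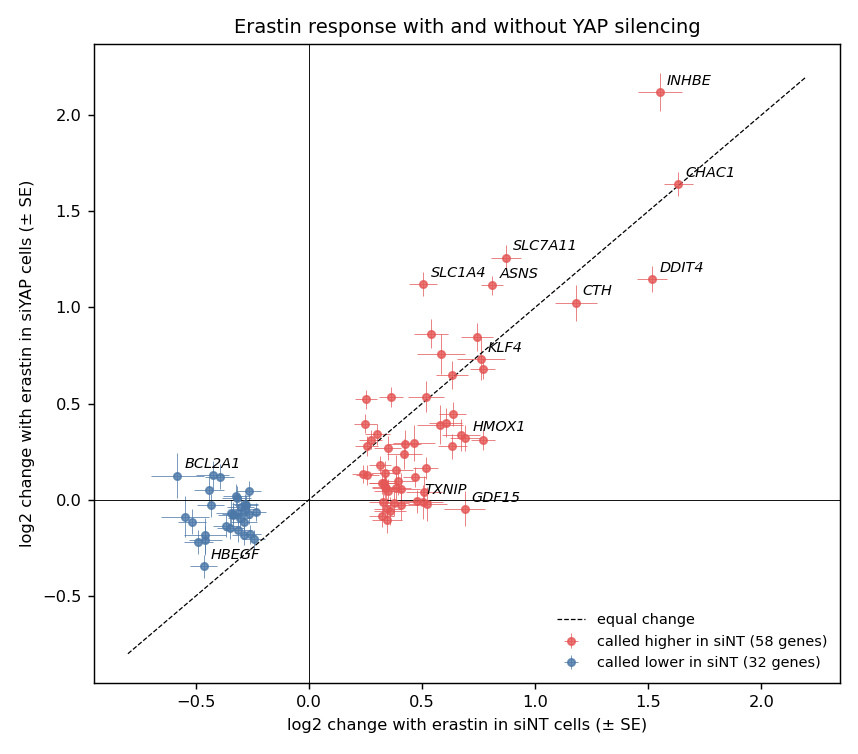
Log2 change with erastin in siYAP cells (vertical axis) against that in siNT cells (horizontal axis) for the 58 genes called higher (red) and the 32 called lower (blue) in siNT cells, with SE bars from limma and a dashed line of equal change. CHAC1 lies on the line (1.63 and 1.64), SLC1A4 above it (0.51 and 1.12) and GDF15 below it (0.69 and -0.05), while the falls in siNT cells lie mostly close to 0 in siYAP cells.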

How the data were processed

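Gene expression was measured on 12 single-channel Affymetrix arrays in 4 groups of 3, taken with their replicate numbers from the sample titles. The deposited log2 values were made by the authors in Affymetrix Expression Console by RMA, as the submitters' processing notes list. Tool versions and times of scanning were not known here, and scan batches were not tested. This normalization equalises arrays, so a change of total RNA would not be seen, and differences of dim genes are compressed toward 0. Of 22277 probe sets, 62 were array controls, 19065 had 1 gene symbol in the platform annotation, 1043 several and 2107 none. Only those with 1 symbol were used, and 4310 of 11963 genes had more than 1 probe set. Symbols were checked against RefSeq by gene identifier (19053 probe sets matched, 0 symbols changed).

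All 12 arrays entered 1 limma 3.58.1 model with a mean for each group (R 4.3.3, 8 residual and 4.17 prior degrees of freedom), and genes were called at a Benjamini-Hochberg adjusted p under 0.05 over all genes. Every adjusted p in the text is limma's, and the median standard error was 0.078. The number of arrays limits the precision. On simulated data with 200 of 11963 genes changed, the siNT comparison found 28% of log2 changes of 0.25, 80% of those of 0.5 and 98% of those of 1, and 5.56% of its calls were false. The simulated noise was normal and independent between genes and arrays. Real arrays can deviate on many genes together, so these rates describe the simulation and not the calls reported here.

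Named genes were a panel, the called genes with the 20 largest rises and the 15 largest falls and with arrays that did not overlap (predicted loci passed over), and of each of 28 lists up to 6 called members with the largest change and 2 uncalled ones with the highest mean. The comparison, the lists and this rule were chosen with earlier results of these data known. Same-numbered siNT arrays did not deviate from their group means in the same direction (correlations of -0.0743, -0.274 and -0.417), so the numbers were not used as pairs. In siYAP cells the correlations were -0.0708, -0.053 and -0.0261. The more negative siNT values mean that many genes deviated together in opposite directions, and the cause was not tested. Alternatives were the 6 siNT arrays alone, a replicate block, other scalings, probe set and variance choices, and each array left out in turn.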

Additional observations from a re-analysis of the deposited data

How the results depend on the processing

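With 3 arrays a group, changes of about 0.25 on the log2 scale lie at the limit of what was called. Most counts moved with the fit. No called gene changed direction in any alternative, but many of the fits could not change a direction, as described above. Of the 90 calls (58 higher, 32 lower), the fit of the 6 siNT arrays alone gave 15 (15 higher, 0 lower). The replicate block gave 38 (29 higher, 9 lower), and the arrays share only a number. More genes passed with the dimmest 30% left out (165; 91 higher, 74 lower), a trended and robust variance (161; 98 and 63) and array weights (323; 146 and 177). Every probe set on its own gave 58 (42 and 16). Centring, quantile normalization and averaged probe sets gave 86, 94 and 74. Leaving out 1 array gave 34 to 76 calls (26 to 53 higher, 8 to 23 lower). The 4 genes of at least 2-fold were 4 under the zero transformation of the series text. The interaction gave 0 genes except 8 with a trended and robust variance and 1 with array weights. The causes were not tested. Of 39 called genes with further probe sets, 8 had another called the same way, 0 the opposite way and 31 none.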

Other observations

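Of the 90 called genes, 23 rises and 22 falls stood on no list. The genes in this paragraph were named after their values were seen. Among the rises, ASS1, which makes argininosuccinate on the way to arginine, rose by 0.35 (adjusted p = 0.039), and SLC16A4, a monocarboxylate transporter homologue, by 0.41 (adjusted p = 0.047). LARP6, an RNA-binding protein of collagen messages, rose by 0.31 from 8.05 ± 0.04 to 8.36 ± 0.02 (SD, n = 3; adjusted p = 0.00995). MAF, a bZIP transcription factor, rose by 0.52 (adjusted p = 0.0198), AGT, which encodes angiotensinogen, by 0.50 (adjusted p = 0.0234), CCNG2, an atypical cyclin, by 0.38 (adjusted p = 0.0256) and the Notch ligand JAG1 by 0.32 (adjusted p = 0.0222). HES1, a target of Notch signalling, rose by 0.35 (adjusted p = 0.0271). None of the other probe sets of MAF, CCNG2, JAG1 and HES1 was called, and a link between JAG1 and HES1 was not tested. CALCB (3.48 to 3.99) and BCO1 (4.24 to 4.71) were called as well. Both lie near or below the mean levels of the endothelial, fibroblast and immune markers, so the size of their change is uncertain.

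Of the falls outside the lists, 5 more are given here, also named after their values were seen. JMJD6, a hydroxylase of splicing factors, fell by 0.31 from 8.96 ± 0.04 to 8.65 ± 0.04 (SD, n = 3; adjusted p = 0.012). GEMIN4, of the SMN complex, fell by 0.29 (adjusted p = 0.0294), SAP130, a SIN3A complex subunit, by 0.28 (adjusted p = 0.039) and SCO2, a cytochrome c oxidase assembly factor, by 0.28 (adjusted p = 0.0427). TRIM21, an antibody receptor and ubiquitin ligase, fell by 0.31 (adjusted p = 0.0205).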
